A study of Mus musculus with 4 samples.

Results

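Lyl1 and Cbfa2t3 encode partners of LMO2, and the list of LMO2 ChIP-seq peaks from pro-B(+) cells named them for 7 of its 1585 peaks (0.442%). These 7 peaks were chosen by the gene name that the list gives each peak: 2 were named for Lyl1 and 5 for Cbfa2t3. LMO2 is a LIM-only protein that does not bind DNA itself. It bridges DNA-binding proteins, such as heterodimers of TAL1 or LYL1 with an E protein and, in erythroid cells, GATA factors, through the adaptor LDB1. LYL1 is a basic helix-loop-helix (bHLH) protein of blood stem and progenitor cells that pairs with E proteins on E-box sequences, and CBFA2T3 (also ETO2 or MTG16) is a corepressor of the ETO family that joins these complexes through the E proteins and recruits histone deacetylases.

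Pro-B(+) is a single Ebf1-deficient cell line, derived from mouse fetal liver (strain given as C57BL6/J), that kept the ability to form T-lineage cells. It was grown on OP9 stromal cells with SCF, IL-7 and Flt3L. The samples were 2 LMO2 ChIP libraries, made with a mixture of 3 anti-LMO2 antibodies, and 2 input libraries without antibody. All 4 carried the same genotype and culture condition, so the comparisons below were between peaks of the list, not between conditions.

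Each peak has 1 score and 1 focus ratio for both ChIP libraries together. The peak score is the peak caller's normalized score, with a minimum of 15 set by the authors, and the focus ratio is the fraction of a peak's reads in the positions expected around 1 bound site. No spread between libraries could be computed, so no value below has an error and no test was run. Since the peaks were chosen from this list with results known, their number, scores and ranks are descriptions. Positions are in GRCm38 (mm10), and each peak is called by its gene and its distance in bp from the transcription start site (TSS) that the list names, negative upstream.

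The sequences of the 6 peaks that lie outside untranslated regions were taken from the GRCm38 reference, as the plus strand, because the spacing of motifs in them is described below. Lyl1 is on the plus strand and Cbfa2t3 on the minus strand. Capitals mark, on either strand, the E-box CANNTG, the RUNX word TGTGGT, the ETS word CTTCCT and the GATA words AGATAA and TGATAA.

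Lyl1 −1338 (chr8:84700016-84700222): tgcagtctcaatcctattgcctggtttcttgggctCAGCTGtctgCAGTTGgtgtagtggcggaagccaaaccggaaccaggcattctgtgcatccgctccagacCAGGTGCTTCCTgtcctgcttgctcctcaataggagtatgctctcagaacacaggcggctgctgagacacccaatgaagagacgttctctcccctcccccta
Cbfa2t3 −3450 (chr8:122702456-122702662): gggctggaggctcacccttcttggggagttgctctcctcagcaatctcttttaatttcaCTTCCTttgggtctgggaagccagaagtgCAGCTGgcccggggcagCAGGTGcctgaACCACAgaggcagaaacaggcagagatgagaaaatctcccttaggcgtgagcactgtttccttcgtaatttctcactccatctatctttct
Cbfa2t3 −2871 (chr8:122701877-122702083): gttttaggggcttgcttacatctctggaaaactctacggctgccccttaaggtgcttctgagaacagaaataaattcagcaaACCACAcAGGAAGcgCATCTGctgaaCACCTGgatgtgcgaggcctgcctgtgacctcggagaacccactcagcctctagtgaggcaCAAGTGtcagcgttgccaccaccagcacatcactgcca
Cbfa2t3 −1746 (chr8:122700752-122700958): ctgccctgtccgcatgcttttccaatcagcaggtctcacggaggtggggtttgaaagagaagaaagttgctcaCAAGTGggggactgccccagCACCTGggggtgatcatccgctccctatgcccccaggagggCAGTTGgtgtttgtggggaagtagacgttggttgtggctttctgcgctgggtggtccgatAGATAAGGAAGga
Cbfa2t3 +11157 (chr8:122666915-122667121): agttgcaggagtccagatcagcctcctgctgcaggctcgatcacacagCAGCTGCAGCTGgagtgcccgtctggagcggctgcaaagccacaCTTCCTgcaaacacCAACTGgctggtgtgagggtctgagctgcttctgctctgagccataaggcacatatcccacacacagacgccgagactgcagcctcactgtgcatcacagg
Cbfa2t3 +12733 (chr8:122665339-122665545): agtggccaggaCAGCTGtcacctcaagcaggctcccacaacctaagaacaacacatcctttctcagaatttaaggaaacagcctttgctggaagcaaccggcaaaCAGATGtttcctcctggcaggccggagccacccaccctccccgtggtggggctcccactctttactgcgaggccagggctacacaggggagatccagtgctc

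At Lyl1 the signal was concentrated in 1 strong peak before the gene. Lyl1 spans chr8:84701423-84704716 on the plus strand (3294 bp), and its curated transcript starts at 84701457. The Lyl1 −1338 peak had a score of 125.3, which ranked 3 of 1585 and was the highest of the 95 peaks on chromosome 8. It lay in the interval between Trmt1, which encodes a tRNA methyltransferase, and Lyl1. It began 207 bp past the end of Trmt1, and 1200 bp separated its end from the Lyl1 gene. The list classed it as a transcription termination site because of the Trmt1 transcript, although it named Lyl1 for it as the nearest start. Among the 25 peaks of that class it had the highest score.

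The Lyl1 +100 peak, at chr8:84701454-84701660, lay over the start site, in the 5′ untranslated part of exon 1 of the curated transcript. Its score was 24.0, which ranked 548 of 1585 (34.6%), above the list median of 20.3. The upstream peak held 83.9% of the summed score of both peaks (149.3), and the start-site peak had 19.2% of the upstream peak's score. Of the 225 genes named for at least 2 peaks, only 3 had a higher ratio between their highest and lowest peak score than Lyl1 (5.22). The median ratio of these genes was 1.36.

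At Cbfa2t3 the 5 peaks formed a triplet before the gene and a pair inside it. Cbfa2t3 spans chr8:122625136-122699332 on the minus strand (74197 bp). It has 14 RefSeq transcripts with 11 different starts, 3 of them curated, which start at 122699109 (the long transcript) and at 122678175 (an internal start used by 2 of them). In the direction of transcription, the scores of the triplet were 35.8 for Cbfa2t3 −3450, 47.9 for −2871 and 101.7 for −1746, so that they were higher nearer to the gene. These scores ranked 228, 115 and 20 of 1585. The Cbfa2t3 −1746 peak was the second highest on chromosome 8, after Lyl1 −1338. It ranked 12 of the 1344 peaks that lie outside annotated repeats.

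All 3 peaks of the triplet were classed as intergenic in the list. By RefSeq, the long non-coding RNA Gm10612 runs on the opposite strand from within Cbfa2t3 (1474 bp of overlap) past its start. The Cbfa2t3 −1746 peak began 591 bp beyond the far end of Gm10612 and 1419 bp from the Cbfa2t3 gene.

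The pair lay in intron 1 of the long transcript and also in intron 1 of the transcripts from the internal start. Cbfa2t3 +11157 had a score of 25.7 (rank 474, 29.9%) and Cbfa2t3 +12733 had 54.5 (rank 81, 5.11%). These distances are from the internal start, and from the start of the long transcript the peak centres lay 32091 and 33667 bp downstream. No listed peak overlapped a curated start of Cbfa2t3, whereas 1 did so at Lyl1.

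**Figure D1:**
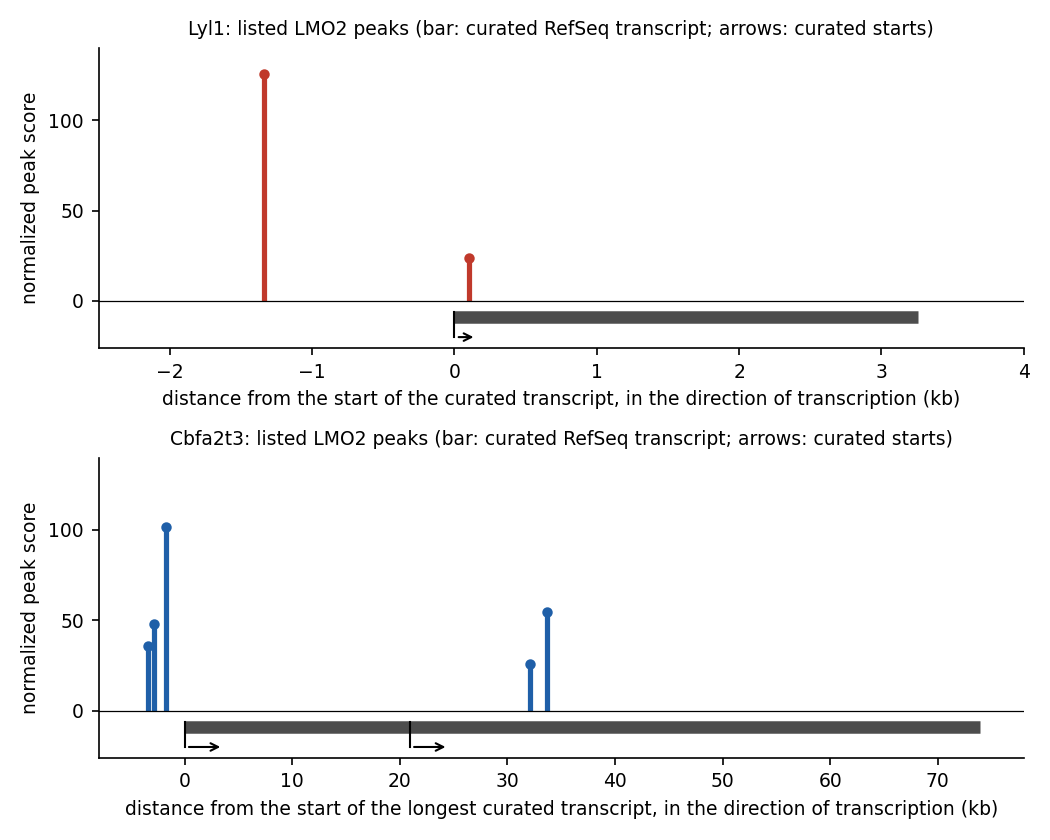
Normalized peak score of each listed LMO2 peak (vertical lines) against its distance in kb from the start of the curated Lyl1 transcript (top) and of the longest curated Cbfa2t3 transcript (bottom), in the direction of transcription; the bars are those transcripts and the arrows the curated starts. Lyl1 has a peak of 125.3 before the gene and 1 of 24.0 at its start, and Cbfa2t3 has 3 peaks before the gene and 2 in its first intron.

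Both genes stood high in the list by the strength of their peaks. All 7 peaks scored above the list median, and 5 of 7 had a score of at least 30, as had 342 of all 1585 peaks (21.6%). The scores of 5 peaks exceeded the upper quartile of the list (27.7), and those of the other 2 (24.0 and 25.7) lay below it. Of the 21 peaks with a score of at least 100, 2 belonged to these genes. Within their own annotation classes, Cbfa2t3 −1746, −2871 and −3450 ranked 14, 60 and 120 of 769 intergenic peaks. Cbfa2t3 +12733 and +11157 ranked 33 and 188 of 605 intronic peaks, and Lyl1 +100 ranked 30 of 126 promoter peaks.

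**Figure D2:**
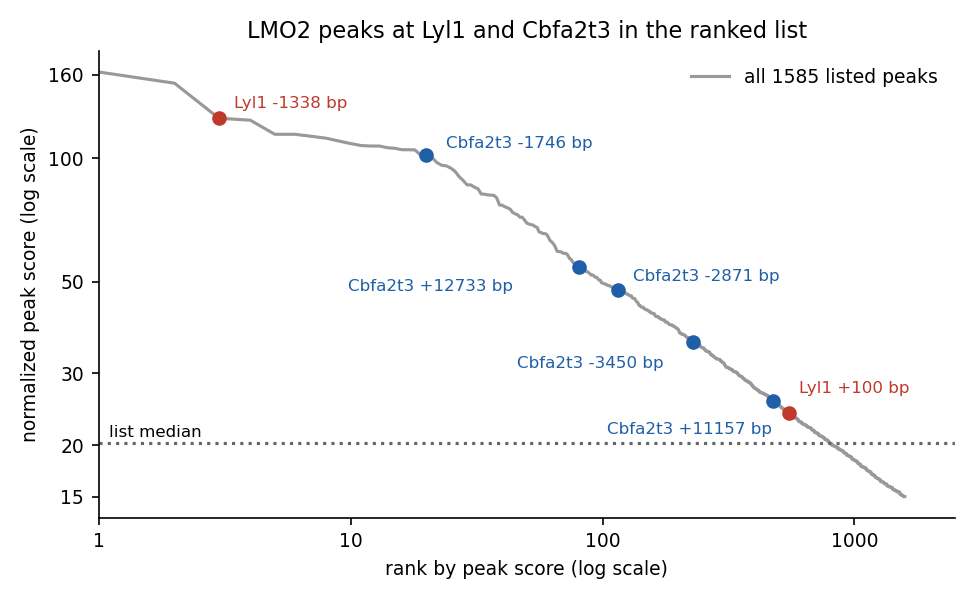
Normalized peak score against rank among all 1585 listed peaks (grey line, both axes on a log scale), with the Lyl1 peaks in red and the Cbfa2t3 peaks in blue, labelled by distance to the TSS. All 7 lie above the list median of 20.3 (dotted), from rank 3 to rank 548.

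Cbfa2t3 was among the genes with the most peaks. The list gave 1167 gene names, and its 122 peaks without a name were not counted. Mir6388 was given for 7 peaks and Runx3, which encodes a RUNX family factor, for 6, and Cbfa2t3 shared the next place with Speer1, at 5 peaks. Counting only peaks with a score of at least 30 left Cbfa2t3 with 4 peaks, more than any of the other names (281 names had such a peak). Its summed score of 265.6 ranked 2, behind G530011O06Rik (279.6). Lyl1 was 1 of 174 names with exactly 2 peaks, and its summed score ranked 12. Among protein-coding RefSeq genes, 4.5% (979 of 21774) were named for at least 1 peak, 0.822% (179) for at least 2 peaks and 1.01% (220) for at least 1 peak with a score of at least 30. Both genes met all 3 criteria, which is a description, since they were chosen from this list with its names and scores known.

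Few genes were alike in their number of peaks and highest score. The 3 other names with 2 peaks whose highest score came closest to that of Lyl1 were 4930515G16Rik (113.2 and 112.0), 4930559C10Rik (110.2 and 107.5) and 1700017B05Rik (96.2 and 41.2). All 4 peaks of the first and second of these lay in RLTR3_Mm long terminal repeats, unlike the Lyl1 peaks. For Cbfa2t3 only Speer1 had the same number of peaks. Its scores ran from 20.0 to 34.3, a highest score 67.4 below that of Cbfa2t3, and its peaks were spread over 94220 bp.

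**Figure D3:**
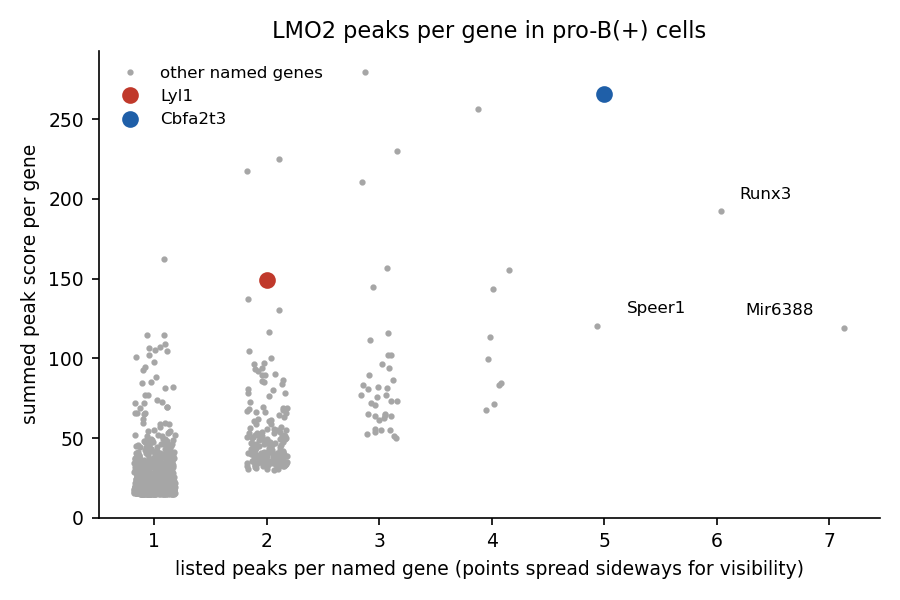
Summed peak score against the number of listed peaks for each of the 1167 gene names, with Lyl1 in red and Cbfa2t3 in blue. Cbfa2t3 combines 5 peaks with a summed score of 265.6, whereas the names with more peaks, Runx3 and Mir6388, have summed scores of 192.1 and 119.2.

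The peaks of both genes were closely spaced. From centre to centre, Cbfa2t3 −3450 and −2871 were 579 bp apart, and 5 of the 1563 gaps between neighbouring peaks in the list, this one included, were as short (0.320%). The next gap, to Cbfa2t3 −1746, was 1125 bp (25 gaps as short, 1.60%). The whole triplet spanned 1704 bp, and it was the only place in the list, with or without peaks in annotated repeats, where 3 peaks lay within this length. Each limit in this paragraph is a gap or span of these peaks themselves. The peaks were also chosen by a shared gene name, so their short spacing is a description. The intronic pair was 1576 bp apart (38 gaps as short, 2.43%) and the Lyl1 pair 1438 bp (33 gaps, 2.11%). Between the triplet and the intronic pair lay 33837 bp, for which 318 gaps were as short (20.3%). The 5 Cbfa2t3 peaks together spanned 37117 bp. The list held 5 peaks within this length at 3 places, the other two among the Hist1 histone genes, where the peaks were named for several genes.

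The closely spaced peaks differed in how their reads were distributed. The focus ratio was 0.889 at Lyl1 −1338, above that of 97.2% of the list, and 0.601 at Lyl1 +100, the 9th lowest of 1585. The stronger, upstream peak was thus among the most focused of the list and the start-site peak among the most diffuse. At Cbfa2t3 the ratio was 0.715 and 0.717 at −3450 and −2871, the closest pair, and 0.771 at −1746. It was 0.802 at +11157 and 0.880 at +12733, which was above 96.3% of the list. The list median was 0.788, so 4 of the 7 peaks lay below it and 3 above. Within the Lyl1 pair, the triplet and the intronic pair, the order of the peaks by focus ratio was that by score. Between these groups it was not always so, since Cbfa2t3 −1746 had a higher score than Cbfa2t3 +12733 but a lower ratio.

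All 7 peaks had another listed peak within 2 kb, as had 86 peaks of the list in all (5.43%). The median focus ratio was 0.756 for these 86 peaks and 0.789 for the other 1499, and 0.750 for the 126 promoter peaks. Lyl1 +100 was both a promoter peak and within 2 kb of a stronger peak, and the part of either in its low ratio was not tested.

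**Figure D4:**
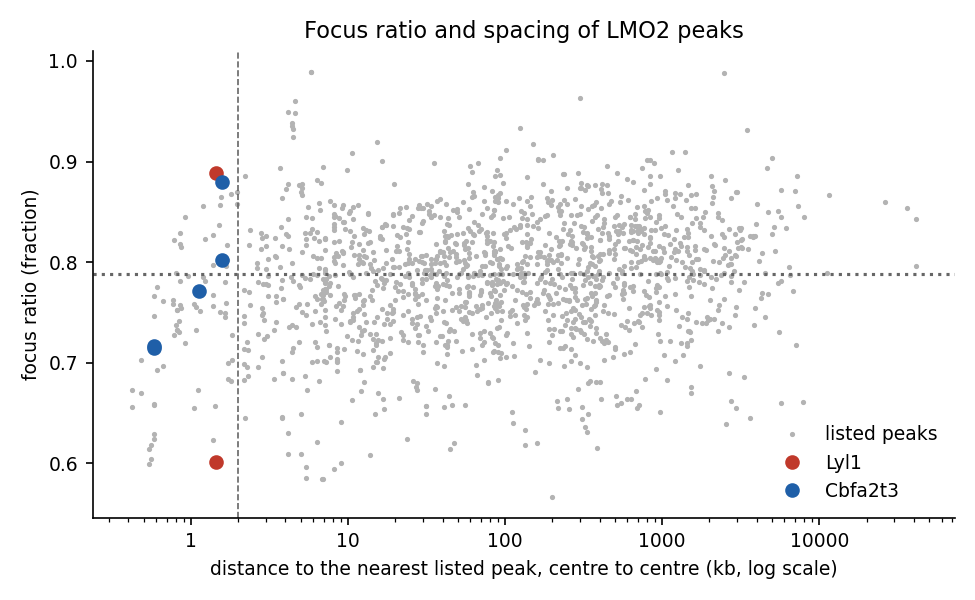
Focus ratio of each listed peak against the distance in kb (log scale) from its centre to that of the nearest listed peak, with Lyl1 in red and Cbfa2t3 in blue; the dotted line is the list median (0.788) and the dashed line marks 2 kb. All 7 peaks lie to the left of 2 kb, with ratios from 0.601 to 0.889.

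Other listed peaks were looked up within 200 kb of each gene. How many peaks such a window holds elsewhere in the genome was not computed. Within 200 kb of Lyl1 the list held 1 further peak, with a score of 16.6 at the promoter of Calr, which encodes the chaperone calreticulin, 143034 bp from the Lyl1 gene. Nfix, which encodes a nuclear factor I protein and meets the end of Lyl1 on the opposite strand (5 bp of overlap), had none, and neither had Trmt1 or Nacc1 on the other side. Around Cbfa2t3, a peak that the list left without a gene name (score 16.3) lay 73204 bp from the gene, and a peak named for Cdh15, which encodes a cadherin (score 43.0), lay 171190 bp from it. Pabpn1l, Mir6396, Trappc2l and Galns, the genes next to the 3′ end of Cbfa2t3, had no listed peak, and neither had C230057M02Rik or Gm10612 on the other side.

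None of the 7 peaks lay in an annotated repeat, and 241 peaks of the list did (15.2%). All 158 overlapping 50-base words of each of the 7 peaks occurred, as exact copies, at a single place on the assembled chromosomes. Near-identical copies were not searched. The count therefore does not show that reads, which the authors allowed to match up to 10 places, had a single place. The G and C content was 63.8% at Lyl1 +100, with 11 CpG dinucleotides, and 52.2% to 58.9%, with 3 to 6 CpG, at the other 6. The list medians were 52.7% and 4 CpG.

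An E-box lay near the centre of 6 of the 7 peaks. E-boxes, the hexamers CANNTG that bHLH dimers such as LYL1 with an E protein bind, were found in the central 200 bp of all peaks but Lyl1 +100, as in 86.5% of the 1584 listed peaks on assembled chromosomes. In these 6 peaks the middle of the nearest E-box was 3.5 to 7.5 bp from the peak centre. In the list, 378 of 1584 peaks (23.9%) had an E-box within 10 bp of the centre, a limit that was set after these positions were seen. With a limit of 5 bp, 4 of the 7 peaks and 12.8% of the list had one. Across the list, E-boxes were found in up to 12.9% of peaks per 10 bp close to the centre and in 6.63% to 8.90% per 10 bp beyond 50 bp from it.

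The E-box nearest to the centre differed in its inner bases. CACCTG (or CAGGTG on the other strand) was the central E-box of Lyl1 −1338, Cbfa2t3 −3450 and Cbfa2t3 −1746. Cbfa2t3 −2871 had it 7.5 bp from the centre beside a CAGATG at 3.5 bp. The central E-box was CAGATG in Cbfa2t3 +12733 and CAACTG in Cbfa2t3 +11157. CAACTG also lay farther from the centre in Lyl1 −1338 and Cbfa2t3 −1746. Anywhere in the central 200 bp, CACCTG was found in 29.0% of the list, CAGATG in 37.7% and CAACTG in 13.8%. How often each was the central E-box of a listed peak was not computed. CAGCTG, found in 33.8% of the list, was present in Lyl1 −1338, Cbfa2t3 −3450, +11157 and +12733, at 12.5 to 89.5 bp from the centre. In Cbfa2t3 +11157 there were 2 copies of CAGCTG side by side. At least 2 copies were found in the central 200 bp of 100 of 1584 listed peaks (6.31%), and how often copies adjoin was not computed.

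The peaks differed in the other motifs. TGTGGT, bound by RUNX factors, was found in 54.9% of the list but in only 2 of the 7 peaks, Cbfa2t3 −3450 and −2871. CTTCCT, bound by ETS factors, was found in 51.4% of the list and in 4 of the 7 (Lyl1 −1338 and Cbfa2t3 −3450, −2871 and +11157). With the looser forms TGNGGT for RUNX (74.1% of the list) and AGGAAG or CGGAAG for ETS (57.6%), each was found in 4 of the 7. All of RUNX, ETS and an E-box of the form CAGCTG or CAGATG were present in Cbfa2t3 −3450 and −2871, as in 268 of 1584 peaks (16.9%). None of them was present in the central 200 bp of Cbfa2t3 −1746 or Lyl1 +100, as in 173 peaks (10.9%), although Cbfa2t3 −1746 held a CTTCCT 98.5 bp from its centre, at the edge of the peak. The TGACAG word of MEIS factors was found in Cbfa2t3 +12733 and in 21.7% of the list.

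In Cbfa2t3 −2871 the 3 motifs were packed into 21 bp (chr8:122701959-122701979), all read on the minus strand and thus on the strand of the gene, in the order E-box (CAGATG), ETS and RUNX. Over the full length of the peaks, 280 of 1584 held all 3, with a median stretch of 78 bp, and 4 (0.253%), this one included, held them within so short a stretch. In Cbfa2t3 −3450 they were spread over 63 bp. In Lyl1 −1338 the central E-box adjoined the ETS word with no base between them (chr8:84700121-84700132), an arrangement of any E-box with CTTCCT that 50 of 1584 peaks had (3.16%). These stretches were measured after the matches had been seen.

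GATA words were found away from the centres. AGATAA or TGATAA was present in 16.1% of the list and in 2 of the 7 peaks, Lyl1 +100 and Cbfa2t3 −1746, at 88.5 and 93.5 bp from the centre. Cbfa2t3 −1746 also held the spaced motif of an E-box end and GATA, CTG and GATA with 8 bases between them, at chr8:122700932-122700946 near the edge of the peak. The search left the base before GATA free, and here it was C. This GATA was thus not part of an AGATAA or TGATAA word, and it shared only its last base with the AGATAA word. A spaced E-box and GATA motif is known from complexes of LMO2 with TAL1 and GATA1. The form searched here, with any base before GATA, was found in 33 of 1584 listed peaks (2.08%).

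Motifs were also looked up in 300 bp promoter windows, which are longer than the 200 bp searched in the peaks, so their shares are not directly comparable. The window of the long Cbfa2t3 transcript (chr8:122699060-122699359) held 2 CTTCCT, 2 CAGCTG, 1 CAGATG and 1 GATA word, although no listed peak lay in it. The windows of the internal Cbfa2t3 start and of Lyl1 held none of these and no TGTGGT. Of all 32851 promoter windows, 35.4% held CTTCCT, 16.3% CAGCTG, 17.2% CAGATG, 18.6% AGATAA or TGATAA and 16.8% TGTGGT. A match or its absence describes only the letters of a window.

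**Figure D5:**
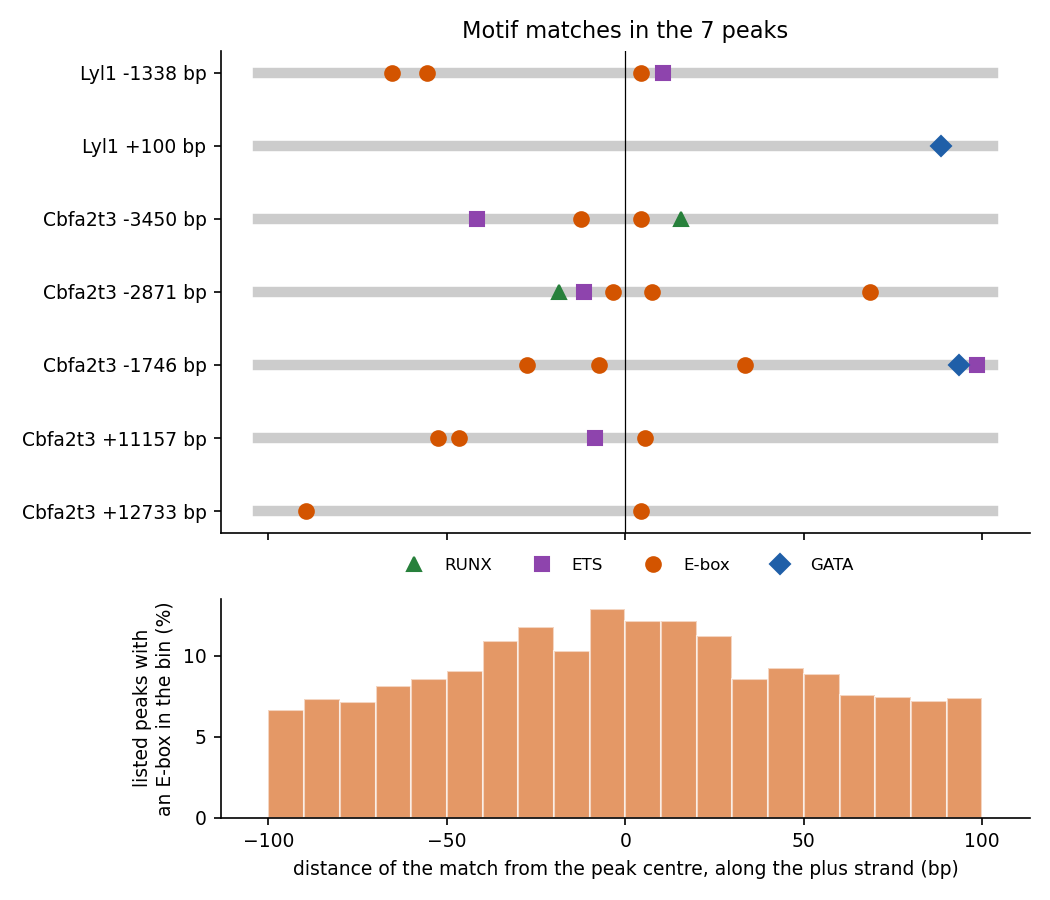
Top, positions of motif matches on either strand in the 7 peaks, each drawn as a grey bar, in bp from the peak centre along the plus strand (the words that are in capitals in the printed sequences); bottom, percentage of the 1584 listed peaks with an E-box in each bin of 10 bp. All peaks but Lyl1 +100 have an E-box within 10 bp of the centre, as have 23.9% of the list.

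Among genes listed around the LMO2 complexes, few others were named for a peak. A list of 39 genes was used that comprises bridging proteins, bHLH proteins, GATA factors, corepressors and other factors. It also takes in relatives such as Lmo1 and Lmo4, and factors such as Hhex. Not all 39 are therefore genes of proteins known to be found with LMO2. Of these, 6 (15.4%) were named for at least 1 peak, against 4.5% of all protein-coding genes, and without Lyl1 and Cbfa2t3 this was 4 of 37 (10.8%). The list includes both genes and was drawn up with earlier results of these data known, so its share is a description. With a score of at least 30, 3 of the 39 genes remained, namely Lyl1, Cbfa2t3 and Runx1.

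Names go to the nearest TSS, and 122 peaks have none, so the same genes were also looked up by position, which was done after the counts by name were known. Within 50 kb of the gene body, whatever name the peak carried, 11 of the 39 genes had a listed peak, and within 100 kb 14 had. The share of all protein-coding genes with a peak at these distances, or inside the gene, was not computed. The counts by position therefore have no background and cannot be set against the share by name. Of the 33 genes named for no peak, 3 held a listed peak inside the gene: Ssbp2 (score 27.0) and Tcf4 (19.8), where the peak had no name, and Spi1 (27.3), where it was named for Slc39a13.

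By role and by name, none of the 8 bridging genes was named for a peak (Lmo2, Lmo1, Lmo4, Ldb1, Ldb2, Ssbp2, Ssbp3 and Ssbp4). Of 7 bHLH genes Lyl1 was named, and Tal1, Tal2, Nhlh1 and the E protein genes Tcf3, Tcf4 and Tcf12 were not. None of the 4 genes of the GATA group (Gata1, Gata2, Gata3 and their cofactor Zfpm1) was named. Of 13 corepressor genes, Cbfa2t3 and Gfi1, which encodes a zinc finger repressor (score 15.2, with the peak in an intron of Evi5), were named. The ETO family members Cbfa2t2 and Runx1t1 were not, and neither were Gfi1b, Kdm1a, Rcor1, Hdac1, Hdac2, Hdac3, Ncor1, Sin3a or Irf2bp2.

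Of 7 other factors, Runx1, which encodes a RUNX factor of blood stem cells, had 3 peaks (31.2, 30.7 and 24.6), the ETS factor gene Erg had 1 (23.9) and the ETS factor gene Fli1 had 2 (both 15.4). Cbfb, Spi1, Meis1 and Hhex were named for none. The listed peak nearest to Hhex, which encodes a homeodomain factor of blood progenitors, was 1428212 bp away, so the list held no peak at this gene by position either. The list keeps only peaks reproducible between both replicates with a score of at least 15. Absence from it therefore does not show that LMO2 was absent from Hhex. The highest scores of Cbfa2t3 and Lyl1 were 101.7 and 125.3, and the highest of a peak named for another gene of this list was 31.2 (Runx1). This order is a description, since both genes were chosen with the scores known.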

How the data were processed

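LMO2 ChIP-seq of pro-B(+) cells comprised 2 ChIP and 2 input samples. According to the methods and labels, the authors aligned reads to mm10 with Bowtie 1.1.1, keeping reads that matched up to 10 places, called peaks against input with HOMER, and kept those reproducible between both replicates by IDR. The methods and the labels differ on read length and sequencer. The deposited list gives for each peak a position, a normalized peak score (scaling not stated), a focus ratio (a fraction) and the nearest TSS. It has no values per replicate, so depth per peak is unknown and no test was run.

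Here, ranks and shares were computed over all 1585 peaks. Gene models and sequences came from RefSeq GRCm38.p6, with which the deposited distances were recomputed. Of the 1167 gene names, 1112 matched RefSeq directly and 52 by synonym; 122 peaks had none. Motifs were searched on both strands in the central 200 bp of 1584 peaks, after tests on simulated sequences; 1 peak off the assembled chromosomes was left out. The genes and lists were chosen with earlier results of these data known; 1 further gene of the complex list is not reported here and is not in its counts of 39. Named are both genes, the complex list, neighbouring genes and peaks within 200 kb, and the 3 genes most alike in number of peaks and highest score. Alternatives were a minimum score of 30, other gene distances, 100 bp or whole-peak windows, wider consensus forms and ranks within subsets; leaving out repeats for spacing and focus ratio, other limits for central E-boxes, and finding peaks at the complex list by position, were chosen after seeing the data. Software comprised pandas 2.3.3, Matplotlib 3.10.9, SciPy 1.17.1, numba 0.67.0 and NumPy 2.4.6 under Python 3.11.15.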

Additional observations from a re-analysis of the deposited data

How the results depend on the processing

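No paired analysis was possible because both ChIP libraries share 1 score per peak. No replicate could be left out, and what depth would limit is unknown. Of 60 recomputed values, 40 stayed within 1.5 times the count, within the 95% Wilson interval of a rank's share or, for a distance, equal, and 20 did not. With a minimum score of 30, Lyl1 had 1 peak, its rank by number of peaks went from 4.46% to 10.3% of the names, and 3 genes of the complex list remained, while counting any peak within 50 kb or 100 kb of these genes gave 11 and 14 instead of 6. By the highest single score, Lyl1 ranked 3 instead of 12 and Cbfa2t3 17 instead of 2. Within its annotation class, Lyl1 −1338 ranked at 4.0% and Lyl1 +100 at 23.8%. In 100 bp windows, CAGCTG was found in 2 of the 7 peaks and in 21.7% of the list. The GATA words (9.34% of the list), the spaced motif (1.52%) and TGACAG (11.7%) were found in 0 of the 7. With wider forms in 200 bp, RUNX was found in 4 (74.1% of the list), GATA in 4 (43.75%) and, against 2 for CAGATG, any E-box in 6 (86.5%). From the nearest start of any RefSeq transcript, predicted ones included, Lyl1 −1338 lay at −1304 bp, and the Cbfa2t3 triplet at −3227, −2648 and −1523 bp. Leaving out peaks in repeats, the difference in median focus ratio between peaks within 2 kb of another and the rest was 0.0335, as before.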
